A study of Homo sapiens with 96 samples.

Results

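The ETS transcription factors that act downstream of the kinase ERK were followed in MDA-MB-231 cells after the MEK inhibitor U0126 was given with epidermal growth factor (EGF). Members were the probe sets annotated to 1 of 7 symbols, ETV1, ETV4, ETV5, ETS1, ETS2, ELK3 and ELK1. This gave 16 of the 22406 probe sets tested, for 6 of the 7 genes. ETV1 had 5 probe sets, ETV5 and ELK1 had 3 each, ETS2 and ELK3 had 2 each, and ETS1 had 1. No probe set was listed for ETV4, so it was not analysed here. The genes lie on separate chromosomes (GRCh38.p14): ETV1 at chr7:13891229-13991425, ETV5 at chr3:186046314-186109089, ETS1 at chr11:128458765-128587558, ETS2 at chr21:38805183-38824955, ELK3 at chr12:96194375-96269824 and ELK1 at chrX:47635520-47650604. No filter on low values was applied, and all 16 probe sets entered every test.

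MDA-MB-231 is a mesenchymal-like human breast cancer line. Of the 96 arrays, 32 were from 3D culture, all in a series titled 3D04, and 64 from 2D culture, in 2 series of 32 titled 2D03 and 2D04. All cells were grown to 80% confluence and kept in low serum for 24 h. The arms were 10 uM U0126 followed by 10 ng/ml EGF (called U0126), DMSO vehicle followed by EGF (DMSO-EGF), EGF alone, and untreated cells (control). Inhibitor or vehicle was added 30 min before EGF. At 0 h there were U0126, DMSO and untreated arrays without EGF, and each arm then had 1 array per series at 0.5, 1, 4, 8, 12, 24 and 48 h. The tests read 3 windows: early for 0.5 and 1 h, middle for 4 to 12 h, late for the last pair of times. All cells are of 1 line, 3D culture is carried by 1 series, and U0126 was the only inhibitor used.

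ETS factors share a DNA-binding domain that recognises the core GGAA. ETV1, ETV4 and ETV5 form the PEA3 group, whose transcription is held down by the repressor CIC until ERK signalling relieves it. ETS1 and ETS2 are activators that ERK phosphorylates beside their pointed domain. ELK1 and ELK3 are ternary complex factors, which bind serum response elements together with SRF and become activators once ERK phosphorylates them. MEK is the kinase that activates ERK.

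Promoters from RefSeq (GRCh38.p14, 250 bases before to 50 after a transcript start) were held for 4 of the 7 genes, 11 promoters in all. The 3 printed here, each at the gene's 5′ end, belong to ETV1 and ELK3, which fell under U0126, and to ETS2, which did not. Capitals mark the ETS core GGAA on either strand (TTCC on the other) and, in ETV1, the CIC octamer TGAATGGA. The ETV1 promoter lies at chr7:13991376-13991675 on the minus strand, that of ELK3 at chr12:96194125-96194424 on the plus strand, and that of ETS2 at chr21:38804933-38805232 on the plus strand.
ETV1: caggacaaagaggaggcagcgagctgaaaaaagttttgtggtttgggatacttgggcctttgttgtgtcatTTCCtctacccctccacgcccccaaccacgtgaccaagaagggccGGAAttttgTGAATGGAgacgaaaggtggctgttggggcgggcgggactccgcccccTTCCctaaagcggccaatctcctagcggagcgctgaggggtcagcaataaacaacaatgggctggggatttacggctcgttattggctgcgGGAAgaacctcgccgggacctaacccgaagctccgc
ELK3: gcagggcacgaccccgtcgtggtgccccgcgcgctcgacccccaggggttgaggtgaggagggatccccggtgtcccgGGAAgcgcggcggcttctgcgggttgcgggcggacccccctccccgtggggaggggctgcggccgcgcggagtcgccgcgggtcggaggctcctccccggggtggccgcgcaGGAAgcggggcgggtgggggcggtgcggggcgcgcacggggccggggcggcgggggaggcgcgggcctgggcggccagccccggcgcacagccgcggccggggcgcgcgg
ETS2: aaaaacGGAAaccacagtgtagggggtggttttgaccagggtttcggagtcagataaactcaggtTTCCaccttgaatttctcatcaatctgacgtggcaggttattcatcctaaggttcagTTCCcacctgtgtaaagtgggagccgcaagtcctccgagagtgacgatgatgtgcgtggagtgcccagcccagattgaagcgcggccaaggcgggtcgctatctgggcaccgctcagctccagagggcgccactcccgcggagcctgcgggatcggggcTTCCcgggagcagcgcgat
Of the printed promoters, that of ETV1 held 4 ETS cores and the 1 CIC octamer, that of ELK3 held 2 cores and that of ETS2 held 4. No other of the 11 promoters held TGAATGGA, the other ETV1 promoters included. Those ETV1 promoters held 3 to 6 cores, and the second promoters of ELK3 and ETS2 held 8 and 7. The core was present in 95.5% of the 35116 promoters (median 3 per promoter) and TGAATGGA in 1.03%. The other CIC octamer, TGAATGAA (1.65% of promoters), the CArG box bound by SRF (1.29%), TATAAA (11.5%) and the cAMP response element TGACGTCA (1.85%) were searched on both strands, and none of the 11 promoters held them. These matches describe the letters in the windows only.

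Values were deposited on a presumed log2 scale, centred per probe set on an unknown reference, so no level can be set against that of another probe set and only differences between arrays are read. Leukocyte and fibroblast markers could therefore not be checked as present or absent. PTPRC, a leukocyte gene, was 0.24 higher in U0126 than DMSO-EGF in both later 3D windows (SE 0.06 and 0.08, limma adjusted p = 0.016 and 0.017), and the other 9 measured leukocyte and fibroblast genes passed no window, although with the series as a replicate block CD68 (0.25) and COL1A1 (0.43) passed in the 2D middle window (adjusted p = 0.037 and 0.024). In 2D03, the U0126 arrays at 8 and 12 h had low RNA quality. Their actin 5′ signal was 1.26 and 1.08 (log2) below their 3′ signal, against differences of -0.36 to 0.31 on the other 94 arrays. Where leaving out this pair changes a call in the 2D middle window, or moves a called value by over 1.5 times, the value without it is given, for members and listed genes alike. Whether repeats came from separate cultures is not stated in the labels, and the p-values speak only of the spread between these arrays. In 3D, with 1 array per arm and time, times stand in for repeats. The 3D p-values thus rest on the spread between times, unlike the 2D ones.

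The first question was which ETS factors changed under U0126, compared with DMSO-EGF. With 1 inhibitor, whether a change came through MEK was not tested. ELK3 and ETV5 fell in all 4 comparisons of the middle and late windows, by 1.29-fold to 4.38-fold at the called probe sets. ETV1 also fell in each of these comparisons on part of its probe sets. ETS1 fell in 3 of them, ELK1 on 1 probe set in each 2D window, and ETS2 rose on 1 probe set in the 3D late window. With the series as a replicate block, ETS1 also passed in the 2D late window (limma adjusted p = 0.021). ETS2 201328_at then rose in the 2D middle window (adjusted p = 0.019). Without the low-quality pair, the 2D middle calls of ETV1, ETS1 and ELK1 were lost. With the replicate block as well, those of ETV1 and ETS1 passed and that of ELK1 did not. Leaving out 1 array lost the ETS1 3D middle call in 4 of 6 fits. It lost the ELK1 2D late call in 6 of 8 fits and the ETS2 3D late call in 2 of 4. Within 1 h no member passed the test in either culture.

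In the early window, 0 of 16 member probe sets were called in 3D and 0 of 16 in 2D, where 0.286% and 0.00893% of all probe sets were called (limma, Benjamini-Hochberg adjusted p over all 22406 probe sets, threshold 0.05). In the 3D middle window 10 member probe sets were called, all lower, beside 6.89% of all probe sets called lower. In the 3D late window 8 were lower and 1 higher, beside 16.1% lower and 18.6% higher. In the 2D middle window 9 were called, all lower, beside 4.68% called lower and 6.46% in either direction. In the 2D late window 7 were called, all lower, beside 4.99% lower, 5.34% higher and 10.3% in either direction. The median difference of the 16 members was -0.71 and -0.53 in the 3D middle and late windows and -0.64 and -0.69 in the 2D ones, against 0.03 or less for all probe sets. With the series as a replicate block, 12 members were called in each 2D window, 12 lower in the late one and 11 lower and 1 higher in the middle one, beside 16.7% and 20.8% of all probe sets called in either direction.

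**Figure D1:**
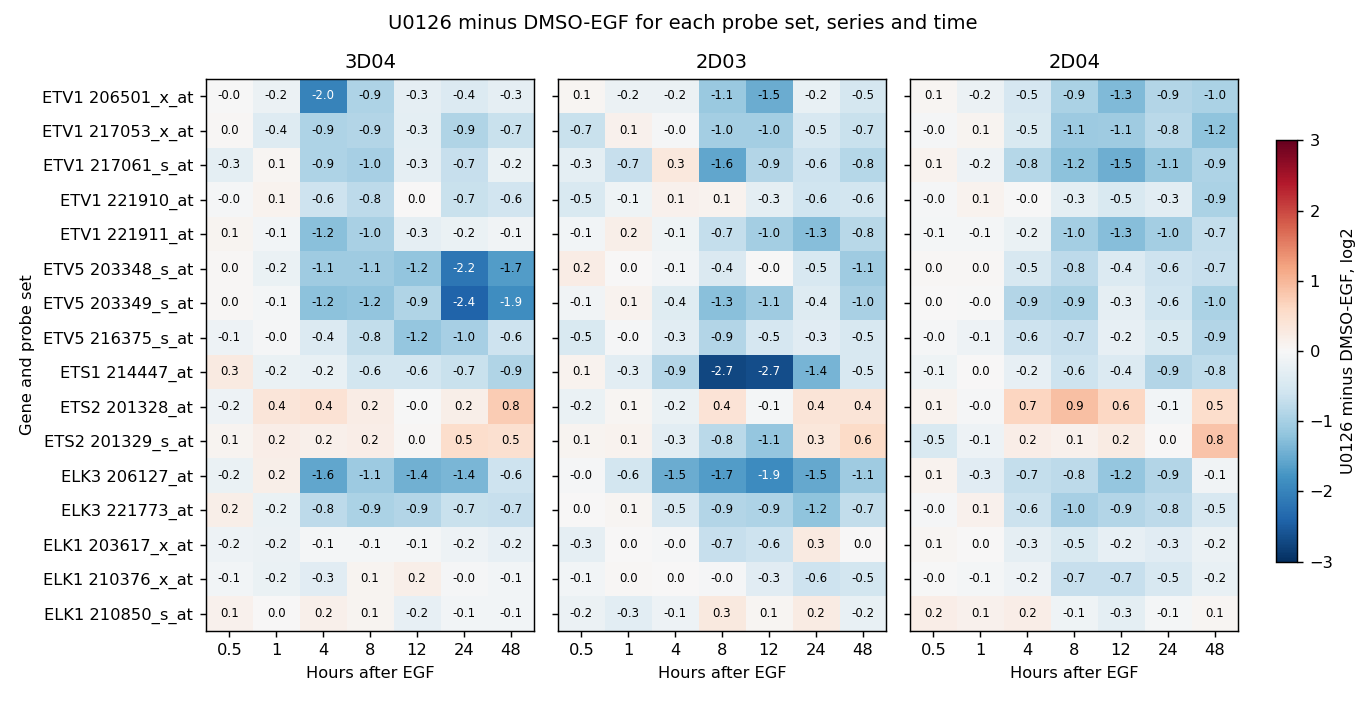
Difference between the U0126 and DMSO-EGF arrays (log2, colour and printed value) for each of the 16 member probe sets (rows), by hours after EGF (columns) and series (panels). Blue marks lower signal in U0126: ETV1, ETV5, ETS1 and ELK3 were mostly blue from 4 h, ETS2 was mostly red outside the 2D03 arrays at 8 and 12 h, and ELK1 stayed pale.

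ETV5, a PEA3 factor, was the member with the deepest fall in 3D culture. Its probe set 203349_s_at had 1.97, 1.90, 0.81, 0.93, 1.22, -0.19 and 0.33 in U0126 at the 7 times from 0.5 to 48 h in 3D04, against 1.93, 1.95, 2.05, 2.12, 2.12, 2.21 and 2.19 in DMSO-EGF. The arms were together at 0.5 and 1 h and apart at every later time, most at 24 h, where U0126 was 5.28-fold lower. In 2D03 the same probe set had 2.81, 2.90, 2.41, 1.67, 1.61, 2.15 and 1.72 in U0126, against 2.91, 2.80, 2.77, 2.93, 2.68, 2.54 and 2.70 in DMSO-EGF. In 2D04 it had 2.69, 2.64, 1.81, 1.79, 2.36, 1.94 and 1.38 in U0126, against 2.67, 2.66, 2.70, 2.73, 2.64, 2.54 and 2.34 in DMSO-EGF. In all 3 series U0126 was thus the lower arm from 4 h with no return to the DMSO-EGF level by 48 h, and in 2D04 the gap narrowed at 12 h.

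From 4 to 48 h, the 5 U0126 arrays of 203349_s_at lay below all 15 arrays of the other arms in 3D04 (-0.19 to 1.22 against 2.01 to 2.28) and in 2D03 (1.61 to 2.41 against 2.42 to 2.95), as did 2.37% and 1.2% of all probe sets in these series. In 2D04 they reached 2.36, within the 2.34 to 2.78 of the others. In the fit, ETV5 203349_s_at fell by 1.11 (SE 0.09, adjusted p = 2.1e-07) in the 3D middle window and by 2.13 (SE 0.11, adjusted p = 9.5e-11) in the 3D late window. In 2D it fell by 0.80 (SE 0.13, adjusted p = 6.6e-05) in the middle and by 0.73 (SE 0.16, adjusted p = 0.0015) in the late window. These 4 calls held with each array left out in turn, and the 2D middle one without the low-quality pair (-0.66, adjusted p = 0.0051).

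The other ETV5 probe sets went the same way. 203348_s_at fell by 1.11 and 1.91 in the 3D middle and late windows and by 0.37 and 0.72 in the 2D ones, all past the threshold. Its 2D middle call was lost after quantile normalization (-0.19, adjusted p = 0.36) and in 2D03 alone (-0.18, adjusted p = 0.44), and was -0.47 (adjusted p = 0.003) without the low-quality pair. 216375_s_at fell by 0.78 and 0.81 in 3D and by 0.54 in the 2D middle window (adjusted p = 0.038), and was -0.53 in the 2D late window (adjusted p = 0.093, or 0.0015 with the replicate block). The 2D middle call of 216375_s_at was lost in 9 of 12 fits that left out 1 array (adjusted p 0.019 to 0.17, highest without the DMSO-EGF array of 2D03 at 12 h, where it was -0.43), after quantile normalization or with array weights (adjusted p = 0.054 and 0.053), and without the low-quality pair (adjusted p = 0.078, or 0.0045 with the block).

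ETV1, the other PEA3 factor measured, was lower in U0126 at 4 h in 3D and mainly from 8 h in 2D. 206501_x_at, read as the ETV1 probe set with the largest spread, had 1.94, 1.66, 0.09, 1.15, 1.76, 1.84 and 1.81 in U0126 from 0.5 to 48 h in 3D04, against 1.95, 1.84, 2.10, 2.07, 2.04, 2.26 and 2.08 in DMSO-EGF. U0126 was 4.03-fold lower at 4 h, and the gap had closed to -0.27 at 48 h. In 2D03 it had 0.40, 0.22, 0.26, -0.87, -1.08, -0.01 and 0.35 in U0126, against 0.34, 0.40, 0.44, 0.25, 0.42, 0.22 and 0.88 in DMSO-EGF, and the lowest pair are the low-quality arrays. In 2D04 it had 1.13, 1.06, 0.38, -0.37, 0.00, 0.71 and 0.78 in U0126, against 1.07, 1.24, 0.89, 0.57, 1.33, 1.60 and 1.74 in DMSO-EGF. In 2D04, with no low-quality array, the gap was widest at 12 h and still 0.96 at 48 h.

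The 5 ETV1 probe sets did not keep one course in 3D. On 221911_at the difference from DMSO-EGF was -1.25, -0.98, -0.26, -0.19 and -0.10 at 4, 8, 12, 24 and 48 h in 3D04, a near return. On 217053_x_at it was -0.92, -0.89, -0.29, -0.90 and -0.66, with a second low at 24 h. In the 3D late window ETV1 was called on 217053_x_at (-0.78, SE 0.14, adjusted p = 2e-04) and on 221910_at (-0.62, SE 0.20, adjusted p = 0.019), while 206501_x_at, 217061_s_at and 221911_at had differences of -0.34, -0.44 and -0.14 that did not pass. The call on 221910_at was lost without the 24 h DMSO-EGF array (-0.46, adjusted p = 0.21) and without the 48 h U0126 array (-0.51, adjusted p = 0.15), and with array weights (adjusted p = 0.086). Names ending in x_at mark Affymetrix probe sets that can match other sequences, and whether that moves 206501_x_at or 217053_x_at was not tested.

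In the 3D middle window 4 of the 5 ETV1 probe sets fell, 206501_x_at by 1.07 (SE 0.20, adjusted p = 0.0012), 221911_at by 0.83, 217061_s_at by 0.73 and 217053_x_at by 0.70. That of 206501_x_at was -0.66 (adjusted p = 0.0015) without the 4 h U0126 array. Of these, 217061_s_at lost the call without the 8 h DMSO-EGF array (-0.66, adjusted p = 0.052) and without the 8 h U0126 array (-0.62, adjusted p = 0.061). In 2D, 217061_s_at fell by 0.94 (SE 0.20, adjusted p = 0.0024) in the middle and by 0.88 (SE 0.25, adjusted p = 0.016) in the late window. The late call was lost in 3 of 8 fits that left out 1 array (adjusted p 0.057 to 0.14, highest without the 24 h DMSO-EGF array of 2D04, where it was -0.67) and in 2D03 alone (-0.73, adjusted p = 0.11). The 2D middle call on 206501_x_at (-0.93, adjusted p = 0.041) was lost without the low-quality pair (-0.67, adjusted p = 0.46, or -0.86 and 0.005 with the block) in 9 of 12 fits that left out 1 array, after quantile normalization or median centring (adjusted p = 0.065 and 0.052) and with array weights (adjusted p = 0.19). That of 217061_s_at was lost without the pair (-0.82, adjusted p = 0.059, or 0.0071 with the block). The late 2D fall of 221911_at by 0.96 (SE 0.29, adjusted p = 0.028) was lost in 4 of 8 such fits (adjusted p 0.15 to 0.32), and was -0.57 without the 24 h U0126 array of 2D03 and -0.63 without the 24 h DMSO-EGF array of 2D04. With the replicate block, all 5 ETV1 probe sets passed in the late window (adjusted p 0.00041 to 0.023) and all but 221910_at in the middle one (0.00016 to 0.0036).

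**Figure D2:**
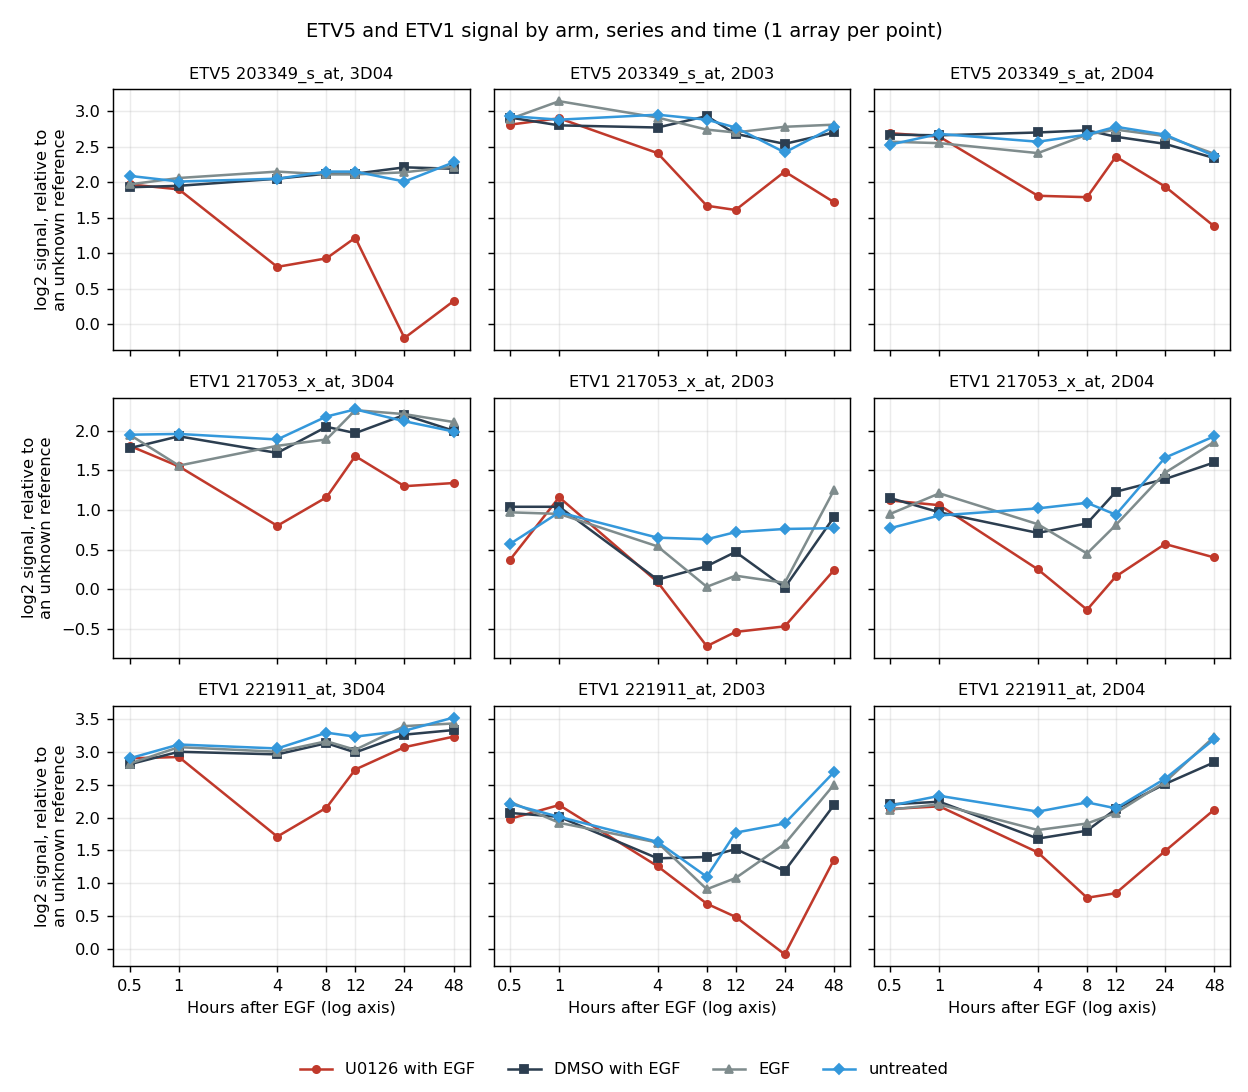
Signal (log2, relative to an unknown reference) of ETV5 203349_s_at and of ETV1 217053_x_at and 221911_at against hours after EGF (log axis), in series 3D04, 2D03 and 2D04, with 1 array per point and a line per arm. In 3D04 the U0126 line of ETV5 stayed below the other arms and reached -0.19 at 24 h, while that of ETV1 221911_at came back to 3.23 at 48 h, beside 3.33 in DMSO-EGF.

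ETS1, an activator known for its role in invasion and in blood vessels, was lower in U0126 in each series, with the deepest values on the low-quality arrays. Its probe set 214447_at had 2.30, 2.16, 1.37, 0.11, 0.05, 0.88 and -0.23 in U0126 from 0.5 to 48 h in 2D03, against 2.19, 2.47, 2.24, 2.83, 2.72, 2.27 and 0.26 in DMSO-EGF. In 2D04 it had 1.39, 1.34, 1.39, 1.41, 1.14, 0.23 and -0.59 in U0126, against 1.51, 1.33, 1.63, 2.03, 1.55, 1.10 and 0.18 in DMSO-EGF. The gaps at 8 and 12 h were -2.72 and -2.67 on the low-quality arrays of 2D03, and -0.62 and -0.41 in 2D04. In 3D04 it had 0.15, -0.25, -0.31, -0.58, -0.44, -0.71 and -0.62 in U0126, against -0.12, -0.06, -0.09, -0.03, 0.12, -0.04 and 0.29 in DMSO-EGF. The gap in 3D04 was widest at 48 h, 1.88-fold.

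ETS1 fell by 0.44 (SE 0.12, adjusted p = 0.022) in the 3D middle and by 0.79 (SE 0.15, adjusted p = 0.00035) in the 3D late window. The 3D middle call was lost in 4 of 6 fits that left out 1 array, without the 8 h or the 12 h array of either arm (adjusted p 0.096 to 0.12). In the 2D middle window it fell by 1.25 (SE 0.34, adjusted p = 0.018), and without the low-quality pair it was -0.86 (adjusted p = 0.38), or -0.60 (adjusted p = 0.027) with the replicate block. This call was also lost in 5 of 12 fits that left out 1 array and with array weights (-0.93, adjusted p = 0.27). In the 2D late window it was -0.88 (SE 0.42, adjusted p = 0.22, or 0.021 with the block). Untreated cells also differed over time: in 2D, ETS1 had 0.69 and 0.23 at 48 h, against 0.96 to 2.47 over 4 arrays at 0 h, a difference of -1.31 (SE 0.51, adjusted p = 0.17, or 0.0078 with the block). At 48 h the DMSO-EGF, EGF and control arrays had 0.26, 0.82 and 0.69 in 2D03 and 0.18, 0.19 and 0.23 in 2D04, while at 24 h they had 2.27, 2.32 and 2.23 in 2D03 and 1.10, 0.95 and 1.00 in 2D04. The 48 h arrays were the lowest of each of these arms in both 2D series.

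ETS2, the close relative of ETS1, was called lower in no window on either of its probe sets. 201328_at had 0.64, 1.13, 0.81, 0.89, 0.75, 0.55 and 1.66 in U0126 from 0.5 to 48 h in 3D04, against 0.80, 0.76, 0.38, 0.66, 0.76, 0.37 and 0.90 in DMSO-EGF. In 2D04 it had 0.81, 0.99, 1.99, 2.22, 1.57, 1.10 and 1.71 in U0126, against 0.71, 1.02, 1.34, 1.32, 0.96, 1.19 and 1.19 in DMSO-EGF. In 2D03 it had 1.26, 1.63, 2.57, 2.43, 1.87, 1.85 and 1.64 in U0126, against 1.46, 1.56, 2.77, 2.03, 1.93, 1.46 and 1.26 in DMSO-EGF. The U0126 array was the highest of the 4 arms at 10 of 15 series and times from 4 to 48 h, and the lowest at 0. The arms overlapped in every series.

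On 201329_s_at, ETS2 rose by 0.51 (SE 0.13, adjusted p = 0.0037) in the 3D late window, with 0.49 and 0.86 in U0126 at 24 and 48 h against -0.04 and 0.37 in DMSO-EGF. This call was lost without the 24 h DMSO-EGF array (0.39, adjusted p = 0.086) and without the 48 h U0126 array (0.42, adjusted p = 0.062). On 201328_at the late 3D difference was 0.47 (adjusted p = 0.10) and the 2D middle one 0.38 (adjusted p = 0.38, or 0.019 with the block, a rise). The 2 probe sets parted on the low-quality arrays, where 201329_s_at was -0.81 and -1.15 and 201328_at 0.40 and -0.06 from DMSO-EGF at 8 and 12 h. In 2D04 at those times 201329_s_at was 0.13 and 0.24 above DMSO-EGF.

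**Figure D3:**
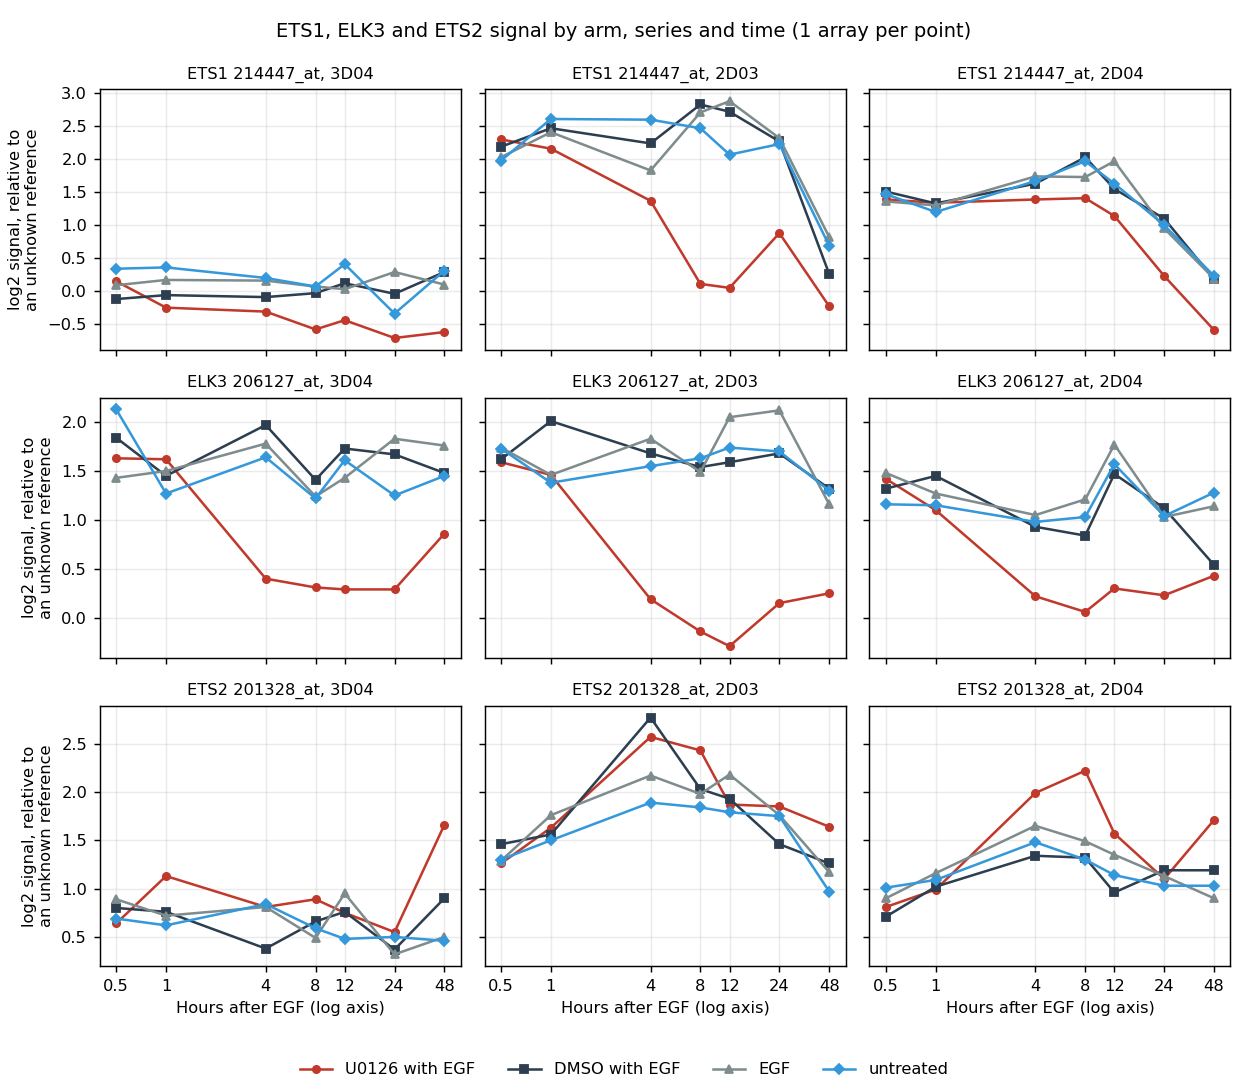
Signal (log2, relative to an unknown reference) of ETS1 214447_at, ELK3 206127_at and ETS2 201328_at against hours after EGF (log axis), in series 3D04, 2D03 and 2D04, with 1 array per point and a line per arm. U0126 was below every other arm from 4 h on for ELK3 and ETS1, ETS1 was low at 48 h in all 2D arms, and the U0126 line of ETS2 was often the highest.

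ELK3, a ternary complex factor known as a repressor in unstimulated cells, fell in both cultures on both probe sets. 206127_at had 1.63, 1.62, 0.40, 0.31, 0.29, 0.29 and 0.86 in U0126 from 0.5 to 48 h in 3D04, against 1.84, 1.45, 1.97, 1.41, 1.73, 1.67 and 1.48 in DMSO-EGF. In 2D03 it had 1.59, 1.46, 0.19, -0.14, -0.29, 0.15 and 0.25 in U0126, against 1.62, 2.01, 1.68, 1.54, 1.59, 1.68 and 1.32 in DMSO-EGF. In 2D04 it had 1.42, 1.10, 0.22, 0.06, 0.30, 0.23 and 0.43 in U0126, against 1.32, 1.45, 0.93, 0.84, 1.47, 1.12 and 0.54 in DMSO-EGF. U0126 was lower from 4 h in each series, and at 48 h in 2D04 the gap was only 0.11. From 4 to 48 h, the U0126 arrays of both ELK3 probe sets lay below all 15 others in each of the 3 series, as no other member's did. Of all probe sets, 2.37% did so in 3D04, 1.2% in 2D03 and 1.33% in 2D04.

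ELK3 206127_at fell by 1.37 (SE 0.15, adjusted p = 5.3e-06) in the 3D middle and by 1.00 (SE 0.18, adjusted p = 0.00027) in the 3D late window. In 2D it fell by 1.28 (SE 0.22, adjusted p = 0.00014) in the middle and by 0.90 (SE 0.27, adjusted p = 0.025) in the late window. On 221773_at the falls were smaller and tighter, 0.87 and 0.69 in the 3D middle and late windows and 0.80 in both 2D windows, with SE 0.09 to 0.12. The 2D late call on 206127_at was lost in 6 of 8 fits that left out 1 array (adjusted p 0.015 to 0.17, highest without the DMSO-EGF array of 2D03 at 48 h, where it was -0.70) and with array weights (adjusted p = 0.15), while the other 7 ELK3 calls held in each such fit. Without the low-quality pair, the 2D middle values were -1.15 (adjusted p = 0.0068) and -0.80 (adjusted p = 2.3e-05).

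ELK1, the ternary complex factor best known as an ERK substrate, had smaller differences. Its calls were all on x_at probe sets, and whether other sequences move these was not tested. 203617_x_at fell by 0.39 (SE 0.10, adjusted p = 0.014) in the 2D middle window and was -0.06 (SE 0.08, adjusted p = 0.74) in the 3D one. 210376_x_at fell by 0.46 (SE 0.15, adjusted p = 0.037) in the 2D late window and was -0.06 (SE 0.14, adjusted p = 0.80) in the 3D one, and 210850_s_at lay between -0.09 and 0.01 in these 4 comparisons. Without the low-quality pair, the first call was lost (-0.30, adjusted p = 0.24, or -0.26 and 0.14 with the block), as it was in 4 of 12 fits that left out 1 array, in 2D03 alone, after quantile normalization and with array weights (adjusted p 0.052 to 0.11). The second was lost in 6 of 8 such fits, in 2D04 alone (adjusted p = 0.15), and after quantile normalization and with array weights (adjusted p = 0.17 each), and was -0.27 (adjusted p = 0.37) without the DMSO-EGF array of 2D03 at 48 h. The 3 ELK1 probe sets also followed each other little, with Pearson r of 0.11 to 0.31 over the 96 arrays after each series was centred, against 0.80 for ELK3, 0.79 to 0.91 for ETV5, 0.59 to 0.87 for ETV1 and 0.53 for ETS2. These correlations describe arrays that share series and treatments.

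At single times in 2D, with 2 arrays per arm, 0 members were called with limma at 0.5, 1 and 4 h, beside 0%, 0.00446% and 0.433% of all probe sets and 202, 235 and 974 at an unadjusted p under 0.05. At 8 and 12 h, 1 of the 2 U0126 arrays is the low-quality array of 2D03, in this and in the blocked fit. At 8 h, 4 were lower (1.05% of all probe sets lower, 1.38% called), ETV5 203348_s_at and 203349_s_at, ETV1 217061_s_at and ELK3 221773_at. At 12 h both ELK3 probe sets were lower (1.2%, 1.57% called), at 24 h ELK3 221773_at and ETV5 203348_s_at (1.03%, 1.89% called), and at 48 h ELK3 221773_at and both these ETV5 probe sets (3.17% lower, 3.38% higher, 6.55% called). With the replicate block, 1 member was called at 4 h, ELK3 206127_at (-1.10, adjusted p = 0.037, beside 1.16% of all probe sets), and 10, 8, 4 and 5 members at 8, 12, 24 and 48 h, beside 5.69%, 7.96%, 7.88% and 15% of all probe sets. All of these were lower but ETS2 201328_at at 8 h. ELK3 221773_at was called at each of the 4 times from 8 h in both fits, with differences of -0.94 at 8 h, -0.91 at 12 h and -0.61 at 48 h. Over the 15 series and times from 4 to 48 h, the U0126 array was the lowest of the 4 arms at all 15 for 7 member probe sets, and 1.87% of all probe sets did so. They were ETV1 217053_x_at and 221911_at, ETV5 203349_s_at and 216375_s_at, ETS1 214447_at and both of ELK3.

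The next question was whether the U0126 effect differed between 3D and 2D culture. The gap was wider in 3D for ETV5 on 2 probe sets and, in the late window, narrower for ETV1 on 1. The late effect on ETV5 203349_s_at differed by -1.40 (SE 0.18, adjusted p = 1.5e-07), from gaps of -2.40 and -1.86 at 24 and 48 h in 3D04, against -0.39 and -0.98 in 2D03 and -0.60 and -0.96 in 2D04. On 203348_s_at the difference of effects was -1.20 (SE 0.18, adjusted p = 3.4e-06) in the late and -0.74 (SE 0.15, adjusted p = 0.0019) in the middle window, while on 216375_s_at the late one was -0.28 (95% interval -0.72 to 0.17, adjusted p = 0.57). The third ETV5 probe set therefore did not show it, and its interval did not reach the late -1.40 and -1.20 of the others.

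ETV1 221911_at had late gaps of -0.19 and -0.10 in 3D04, against -1.27 and -0.83 in 2D03 and -1.02 and -0.72 in 2D04, a difference of effects of 0.81 (SE 0.24, adjusted p = 0.025). The other 4 ETV1 probe sets had late differences of -0.01 to 0.44 that did not pass, and against 2D04 alone the call on 221911_at was lost (adjusted p = 0.076), as it was with array weights (adjusted p = 0.075). In all, 1 member was called in the middle window (1.94% of all probe sets) and 3 in the late one (8.48%), while 0 were called in the early one (0.0536%). The late differences of effects for ELK3 were -0.10 (95% interval -0.67 to 0.47) on 206127_at and 0.12 (-0.20 to 0.44) on 221773_at. For ETS1 the late one was 0.09 (-0.74 to 0.92). Because 3D is 1 series, culture and series cannot be told apart. The p-values of these differences rest on the spread between times and, in 2D, between series. They measure no spread between 3D cultures.

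**Figure D4:**
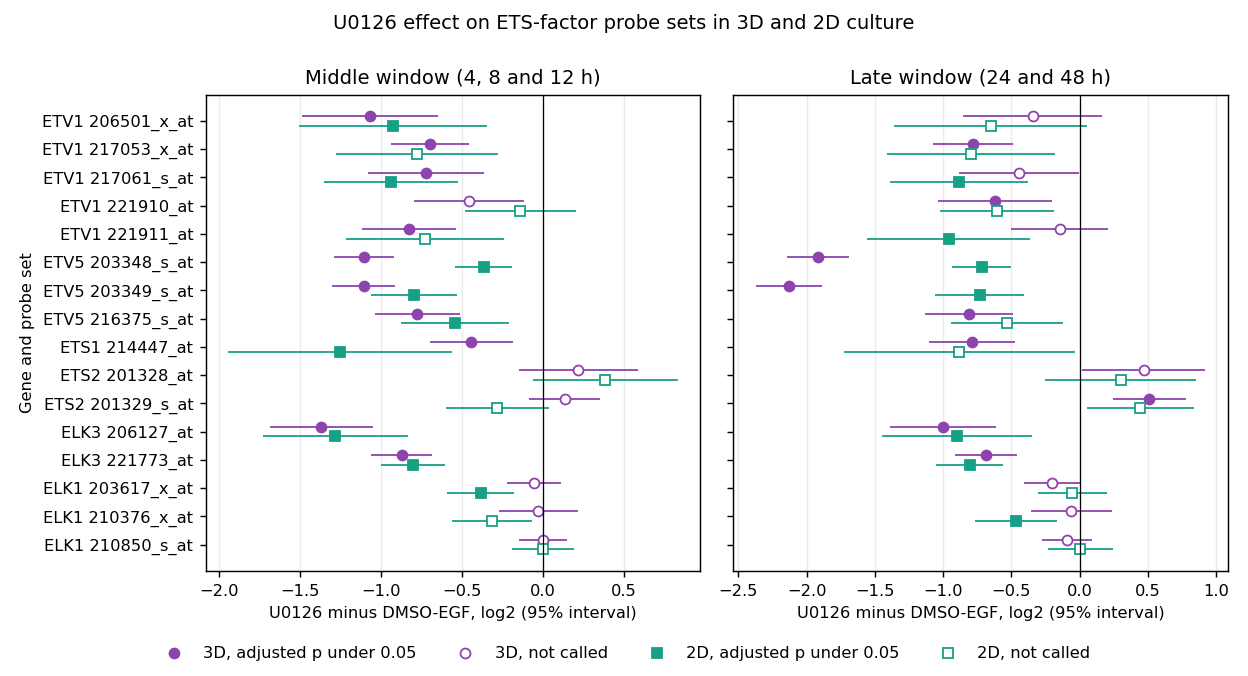
U0126 minus DMSO-EGF (log2, points) with 95% intervals (bars) for the 16 member probe sets in the middle and late windows, in 3D (circles) and 2D (squares). Filled points had an adjusted p under 0.05. The late 3D points of ETV5 203348_s_at and 203349_s_at, at -1.91 and -2.13, stood apart from their 2D points at -0.72 and -0.73.

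The effect of U0126 also differed between windows. In 2D, the late effect was below the early one for ETV5 203348_s_at (-0.79, SE 0.15, adjusted p = 0.00097) and ELK3 221773_at (-0.84, SE 0.17, adjusted p = 0.0021), 2 members beside 3.35% of all probe sets. With the replicate block ETV5 203349_s_at (-0.73, adjusted p = 0.0056) and ETV1 221911_at (-0.95, adjusted p = 0.025) joined them, beside 10.8%. In 3D, the late effect was below the middle one for ETV5 203349_s_at (-1.02, SE 0.15, adjusted p = 9.5e-05) and 203348_s_at (-0.81, SE 0.14, adjusted p = 0.00048), and above it for ETV1 221911_at (0.69, SE 0.22, adjusted p = 0.038), 3 members beside 16% of all probe sets. The members' share, 3 of 16, was near that background. ETV5 216375_s_at (-0.03, adjusted p = 0.95) and ETV1 217053_x_at and 221910_at (-0.08 and -0.16, adjusted p = 0.84 and 0.76) were not called. In 2D, limma called 0 members between these windows (1.78% of all probe sets, with 2675 at an unadjusted p under 0.05), and with the replicate block 1, ETS2 201329_s_at (0.73, adjusted p = 0.042), beside 8.15%. The comparison of late with middle was chosen after the values were seen.

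No member was called for EGF alone against untreated cells. ETV5 203349_s_at had 1.97 and 2.06 in EGF at 0.5 and 1 h in 3D04, against 2.09 and 2.01 in control, and 2.89, 3.14, 2.57 and 2.55 in EGF in the 2D series, against 2.93, 2.88, 2.53 and 2.68 in control. ETV1 217061_s_at had 1.59 and 1.71 in EGF in 3D04, against 2.10 and 1.78 in control. In every window of both cultures, 0 of 16 members and 0 of all probe sets (0%) were called for EGF against control with limma, and 145 to 760 probe sets had an unadjusted p under 0.05. The late 3D difference of ELK3 206127_at, 0.45 (SE 0.18), was the member value with the smallest unadjusted p (0.027, adjusted p = 1). Intervals were wide for some members: the early 2D difference of ETS1 was -0.04 (95% interval -0.89 to 0.81) and that of ETV5 203349_s_at 0.03 (-0.29 to 0.36).

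In 2D, the vehicle and the pre-treatment gave no call either, and in 3D they were not tested. DMSO-EGF against EGF in 2D called 0 members and 0 of all probe sets in each window (0%, with 155 to 243 probe sets at an unadjusted p under 0.05), with member differences of -0.28 to 0.22. With 2 arrays per arm in 2D, U0126 against DMSO at 0 h, 30 min after the inhibitor, called 0 members and 0 of all probe sets (0%, 192 unadjusted). ETV5 203349_s_at then had 2.87 and 2.61 in U0126, against 2.73 and 2.76 in DMSO. ELK3 206127_at had 1.60 and 1.02 in U0126, against 1.43 and 1.00 in DMSO. Before EGF, the arms thus stood together for both genes.

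Without inhibitor, members also stood at different levels in the series and times, given here as a description. Over 24 arrays per series that never had U0126, ETS1 had a median of 0.11 (-0.34 to 0.41) in 3D04, against 2.28 (0.26 to 2.88) in 2D03 and 1.36 (0.18 to 2.03) in 2D04. ETV5 203349_s_at had 2.10 (1.93 to 2.28) in 3D04, against 2.81 (2.42 to 3.14) in 2D03 and 2.66 (2.34 to 2.78) in 2D04. On this probe set the 3D range lay below both 2D ranges. On ETV5 203348_s_at the 3D range, 1.18 to 1.59, overlapped that of 2D04, 1.51 to 2.3. On ETV5 216375_s_at the ranges of 3D04 and 2D04 also overlapped, at 0.32 to 0.87 and 0.63 to 1.26. ETV1 206501_x_at had 2.06 (1.74 to 2.27) in 3D04, against 0.44 (0.16 to 1.16) in 2D03 and 1.04 (0.29 to 1.94) in 2D04. ETS2 201328_at had 0.64 (0.32 to 0.95) in 3D04, against 1.68 (0.97 to 2.77) in 2D03 and 1.14 (0.71 to 1.65) in 2D04. ELK3 221773_at was alike in all 3, with 2.44 (2.23 to 2.77), 2.32 (1.96 to 2.57) and 2.31 (2.06 to 2.47), ranges that overlapped. ELK1 210376_x_at was alike too, at -0.66, -0.52 and -0.54.

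In untreated 2D cells, 48 h against 0 h, ETV1 221911_at had 2.69 and 3.19 at 48 h, against 1.86 to 2.15 over the 4 arrays at 0 h. The difference was 0.91 (SE 0.36, adjusted p = 0.17, or 0.01 with the replicate block). In the main test 0 members were called, beside 4.33% of all probe sets. With the block 5 were called beside 13.2%, ETV1 217053_x_at, 221910_at and 221911_at higher, and ETS1 and ETV5 203348_s_at lower.

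The genes whose patterns over the 96 arrays were most like each member, after centring each series, were found by Pearson r as a description. For ETV5 203349_s_at they were PHC2 (r = 0.90), FST (0.89) and WWTR1 (0.88). For ETS1 they were CSNK1A1 (0.90), ATP13A3 (0.88) and MCL1 (0.86), for ELK3 206127_at BCL2L1 (0.83), PHC2 (0.82) and PDLIM5 (0.82), and for ETV1 206501_x_at PGF (0.82), SVIL (0.79) and NET1 (0.79). ETS2 201328_at was most like GADD45B (0.71), TUFT1 (0.70) and PRKRIP1 (0.67), and ELK1 210376_x_at like CBX3 (0.56), HNRNPA3 (0.54) and MSH6 (0.54). Among the members, ETV5 203349_s_at and ELK3 206127_at had r = 0.75, while ETS2 201328_at had r of -0.57 with ETV1 221911_at and -0.35 with ELK3 206127_at.

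Among the genes around the members, those linked to repression by CIC were mostly lower in U0126, with 1 probe set per gene, that of the highest SD. In 3D, 6, 9 and 9 of the 10 measured were lower in the early, middle and late windows, and in 2D 0, 8 and 8, with 0 higher throughout. Of all 11940 genes, 0.293%, 7.93% and 18% were lower in 3D and 0.0168%, 5.06% and 5.8% in 2D. FOSL1, an AP-1 subunit, fell by 4.06 (SE 0.18, adjusted p = 6.6e-12) in the 3D late and by 2.15 (SE 0.12, adjusted p = 3.8e-16) in the 2D late window. SPRY4, a feedback inhibitor of receptor signalling, fell by 2.65 in the 3D middle and by 2.91 in the 2D middle window. DUSP6, an ERK phosphatase, fell by 2.72 in the 2D middle window. DUSP6, SPRY4 and SPRY2, of the same Sprouty family, already fell in the early 3D window, by 2.89, 1.77 and 1.10, where no PEA3 probe set was called.

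Of 11 measured genes of SRF and serum response elements, the sites of ELK1 and ELK3, 5, 5 and 4 were lower in the 3D early, middle and late windows, and 2, 6 and 3 in 2D. The shares of all genes called lower were 0.293%, 7.93% and 18% in 3D and 0.0168%, 5.06% and 5.8% in 2D. EGR1, a zinc finger factor, was called in each, with differences of -2.27, -2.77 and -4.27 in the 3D windows and -1.61, -3.39 and -3.31 in the 2D windows. FOS, an AP-1 subunit, fell by 1.60 in the 2D early window (adjusted p = 0.03). MRTFB, an SRF co-factor, was the 1 gene of the list that rose (named for this after its values were seen), by 0.46 and 0.64 in the 3D middle and late windows (adjusted p = 1.7e-05 and 5.6e-07), and with the replicate block by 0.26 in the 2D middle window (adjusted p = 0.019). With the block, 4 genes of this list were lower in the 2D early window, beside 0.0503% of all genes. SRF itself fell by 0.27 in the 2D late window.

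Of 8 protease genes with ETS sites, 0, 3 and 3 were lower in the 3D windows and 0, 2 and 3 in the 2D windows, and 0 were higher. Of all genes, 7.93% and 18% were lower in the 3D middle and late windows and 5.06% and 5.8% in the 2D ones. PLAU, the urokinase gene, fell by 1.37 and 1.47 in the 3D middle and late windows and by 1.52 and 1.21 in 2D. Its receptor gene PLAUR fell by 1.04 and 0.38 in 3D and by 1.33 and 0.69 in 2D, and the collagenase gene MMP1 by 0.76 and 2.15 in 3D and, in the 2D late window, by 2.61 (SE 0.74, adjusted p = 0.016). The median difference over the 8 genes was -0.05 and -0.04 in the 3D middle and late windows and -0.54 and -0.45 in the 2D ones.

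Of 19 other ETS genes measured, at most 1 was called in each direction in any window, beside up to 18% lower and 20.6% higher of all genes in the 3D late window. With the replicate block, 3 were lower and 1 higher in the 2D middle window, beside 12.2% and 6.71% of all genes. ELF3, an epithelial ETS factor, rose by 1.57 (SE 0.24, adjusted p = 2e-04) in the 3D middle and by 0.95 (adjusted p = 0.016) in the 3D late window. ELK4, the third ternary complex factor, fell by 0.27 and 0.74 in these windows (adjusted p = 0.049 and 2.1e-05). ERF, an ETS repressor that ERK phosphorylates, fell by 0.86 in the 2D middle window (adjusted p = 0.019), and was -0.21 (adjusted p = 0.79) without the low-quality pair, or -0.32 (adjusted p = 0.02) with the block too. Of 7 measured genes of CIC repression and PEA3 turnover, 1 was lower in each 3D window, and 0, 1 and 3 were higher. In the 3D late window 18% of all genes were lower and 20.6% higher. In the 2D windows 0, 2 and 1 of the 7 were lower and 0 higher. TRIB1, which binds the ubiquitin ligase COP1, fell by 1.35, 1.57 and 1.60 in the 3D windows. In the 2D middle and late windows it fell by 1.69 and 1.59. CIC rose by 0.28 in the 3D middle window (adjusted p = 0.023) and ATXN1, a partner of CIC, by 0.58 in the late one. TRIB2, a relative of TRIB1, fell by 1.56 in the 2D middle window (-1.01 without the low-quality pair, adjusted p = 0.00013) and rose by 0.85 in the 3D late window.

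Of 8 measured kinases that phosphorylate ETS factors, 1 was lower and 2 were higher in each of the 3D middle and late windows. Of all genes, 7.93% were lower and 6.83% higher in the middle one, and 18% and 20.6% in the late one. In 2D, 2 kinases were lower in the middle and 1 in the late window, beside 5.06% and 5.8% of all genes, and 0 were higher. MAP2K1, which encodes MEK1, fell by 0.48 and 0.72 in the 3D middle and late windows and by 0.27 in the 2D late window. MAPK3, which encodes ERK1, rose by 0.23 and 0.29 in the 3D middle and late windows. RPS6KA5 rose by 0.43 in the 3D middle and RPS6KA2 by 0.72 in the 3D late window, and RPS6KA3 and MAPK8 fell by 0.31 and 0.56 in the 2D middle window. Both calls were lost without the low-quality pair, where RPS6KA3 was -0.36 (adjusted p = 0.066, or 0.012 with the block) and MAPK8 -0.13 (adjusted p = 0.87, or 0.69). Among the markers of the line, AXL and MSN fell and SPARC rose in the 3D late window, by 0.93, 0.43 and 0.53, and 0 of the 6 were called elsewhere, except that with the replicate block CD44 and MSN were lower in the 2D middle window (adjusted p = 0.02 and 0.019) and CD44 higher in the late one (adjusted p = 0.031). Of the 6 luminal markers, KRT18 fell in both middle windows, by 0.57 in 3D and by 0.53 in 2D (-0.50 without the low-quality pair, adjusted p = 0.059, or 0.00043 with the block), and in the 3D late window KRT19 fell by 1.29 and KRT8 rose by 0.60.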

How the data were processed

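RNA of 96 MDA-MB-231 samples was measured on Affymetrix arrays, 1 array per sample. The values were deposited on a presumed log2 scale after RMA, which the submitters' processing notes name without a version. They are centred per probe set on a reference not given in the sources used here, and fold changes assume base 2. Of 22930 probe sets, 524 array controls were left out. The 22406 others were tested without a filter, and 19415 carried 1 symbol in the platform annotation, for 11940 genes. Array values give no counts, so the number of arrays limits the precision.

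Differences were fitted with limma 3.58.1 in R 4.3.3 (lmFit, eBayes with trend), with Benjamini-Hochberg adjustment over all probe sets and a threshold of 0.05. In 2D, the 31 groups of arm and time had their own means (33 residual df), and windows averaged them, with 4, 6 and 4 arrays per arm. In 3D, with 1 array per arm and time, arm by window was fitted with time as a term (12 residual df), so times stand in for repeats. A joint fit (45 residual df) gave 3D minus 2D, again with times as repeats, in 2D along with the series. In 2D, the labels' replicate numbers follow the series names. Deviations from the group means correlated between same-numbered arrays in all 465 pairs of groups (r 0.197 to 0.790), so a fit with the replicate block stands beside results it changes. No 2 arrays were identical (highest r 0.976). The steps were tested on simulated data that held no series effect, so the pairing by series was not tested there.

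All probe sets of the members are reported. From each gene list, up to 3 genes per comparison with the smallest adjusted p are named. The members and lists were chosen with earlier results of these data known. Alternatives were another normalization, array weights, filters, 1 probe set per gene, single series, a joint fit, the block and leaving out arrays. The late minus middle comparison, the block without the low-quality pair, and the lists without this pair or with the block, were added after seeing the data. Protein sequences were not used here.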

Additional observations from a re-analysis of the deposited data

Results flagged for a closer look

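The U0126 effect on 3 probe sets differed between 3D and 2D culture in a test of the difference itself. For ETV5 203348_s_at it was -0.74 in the middle and -1.20 in the late window, and for ETV5 203349_s_at it was -1.40 in the late window. For ETV1 221911_at it was 0.81 in the late window, a smaller gap in 3D, where the effect itself was -0.14. Of all probe sets, 1.94% were called for this difference in the middle and 8.48% in the late window. In the late window, the other probe sets of ETV5 and ETV1 were not called. In the middle window, no other member probe set was called. Culture and series cannot be told apart, since 3D is 1 series.

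Between windows, the late 2D effect lay below the early one by a difference of -0.79 for ETV5 203348_s_at and -0.84 for ELK3 221773_at. In 3D, the late effect differed from the middle one by -0.81 for ETV5 203348_s_at, -1.02 for ETV5 203349_s_at and 0.69 for ETV1 221911_at. Each of these 9 differences had a limma adjusted p under the threshold in its own test. Of all probe sets, 3.35% were called for late minus early in 2D and 16% for late minus middle in 3D. The members' share in the latter, 3 of 16, was near that background. Late minus middle was also chosen after the values were seen. Between windows, limma called no other member probe set, those of the same genes included.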

How the results depend on the processing

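With the replicate block, which pairs arrays by series, 12 member probe sets were called in the 2D late window in place of 7, 4 in place of 2 for late minus early, and 5 in place of 0 for untreated cells at 48 h against 0 h. Calls that the block changed stand beside the members' results, and among the members' 2D comparisons it changed no other. For the gene lists in 2D, fitted after seeing the data, it moved other calls too, which are given only where a sentence bears on them. Single arrays were not left out for the lists or for late minus middle. In the 2D middle window, 5 in place of 9 were called after quantile normalization or with array weights, and 4 without the low-quality pair. Without the pair, 1.84% of all genes were called lower and 0.946% higher, against 5.06% and 2.09% with it. Apart from the block, the share of all features called is not given here for the other alternatives or for single arrays left out. A change in those counts therefore cannot be told from a change in calling over all features. In the 2D late window, 13 were called in 2D04 alone and 13 in the joint fit. Both fits take times as repeats, so their p-values measure another spread than those of the main 2D fit. Against 2D03 alone, 3D minus 2D had 3 calls in the middle window in place of 1. Counting 1 probe set per gene, 4 and 3 genes were called in the 3D middle and late windows, 4 and 3 in the 2D ones, 0 and 1 for 3D minus 2D in these windows, and 0 for 2D late minus early; fewer features enter these counts.

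Leaving out 1 array at a time gave 8 to 10 calls in the 3D middle, 7 to 11 in the 3D late, 5 to 11 in the 2D middle and 3 to 7 in the 2D late window, with 0 to 0 in both early windows. The count moved by over 1.5 times without the 8 h array of 2D03 in DMSO-EGF or in U0126 (5 calls in the 2D middle window each), without the 24 h U0126 array of 2D03 (3 in the late window) and without the 24 h DMSO-EGF or the 48 h U0126 array of 2D04 (4 each). Of 39 probe set results, 28 stayed past the threshold in all alternatives other than leaving out single arrays, and 0 reversed. The causes were not tested. Centred values show no signal over background, so low expression of a probe set cannot be judged.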
